A study of Mus musculus with 6 samples.

Results

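The 84 protein-coding genes of the cytosolic ribosome were followed in thymocytes, out of 55536 genes counted. They were chosen by symbol on the mouse build GRCm38 alone (Rpl or Rps followed by a number, Rplp0 to Rplp2, and Rpsa). The rule used no measured value, though it was set with earlier results of these data known. The large subunit contributed 52 genes and the small subunit 32. Another 6 symbols of this form belonged to annotated pseudogenes and were left out. Messenger RNA was sequenced in bulk from the thymus of 6 untreated mice in steady state, 1 library per mouse. Per the labels, 3 mice lacked the alpha chain of the interleukin-3 receptor (Il3ra-/-) and 3 were wildtype (Il3ra+/+). Strain, age, sex and how the Il3ra allele was made were not given in the sources used here.

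Cytosolic ribosomes translate messenger RNA into protein. Their small subunit reads the message and their large subunit joins the amino acids, and each holds a set of small, mostly basic proteins on a core of ribosomal RNA. Nearly every protein is needed in a single copy per ribosome, the acidic stalk proteins Rplp1 and Rplp2 being the known exception, so the genes are transcribed at high and balanced levels. Their messenger RNAs begin with a run of pyrimidines, the 5′ terminal oligopyrimidine (TOP) motif, through which mTORC1 and Larp1 control their translation. Developing T cells are known to be sensitive to ribosomal protein dosage, and loss of Rpl22 blocks part of their development in mice. Mammalian genomes also hold many processed pseudogenes of these short, abundant messages, which bears on how reads are counted.

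Pyrimidine runs near the annotated start are shown because the TOP motif is a known common feature of these genes. Each line gives 30 bases, 5′ to 3′ on the strand of the gene, from RefSeq on GRCm38.p6, with the longest pyrimidine run near the annotated start in capitals.
Rpl7a: cacaaTTCCCTCTTCTTTCTTTCTCCagca
Rpl35: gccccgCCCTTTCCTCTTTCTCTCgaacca
Rpl4: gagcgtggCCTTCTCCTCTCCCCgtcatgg
Rpl14: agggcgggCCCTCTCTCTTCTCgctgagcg
Rplp2: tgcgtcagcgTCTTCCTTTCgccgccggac
Rps27: ttccgctttcgCTCCTTTCCggcggtgacg
Rps27l: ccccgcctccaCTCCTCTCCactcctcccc
Rpl22: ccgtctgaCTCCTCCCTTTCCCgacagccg
Rpl22l1: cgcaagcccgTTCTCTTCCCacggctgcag
These windows lie at Rpl7a chr2:26910788-26910817 (plus strand), Rpl35 chr2:39005115-39005144 (minus strand), Rpl4 chr9:64173405-64173434 (plus strand), Rpl14 chr9:120571501-120571530 (plus strand), Rplp2 chr7:141447636-141447665 (plus strand), Rps27 chr3:90213632-90213661 (minus strand), Rps27l chr9:66946053-66946082 (plus strand), Rpl22 chr4:152325679-152325708 (plus strand) and Rpl22l1 chr3:28805499-28805528 (plus strand). The run had 21 bases in Rpl7a, 18 in Rpl35, 15 in Rpl4, 14 in Rpl14 and Rpl22, 10 in Rplp2 and Rpl22l1 and 9 in Rps27 and Rps27l. Its first base lay between position -39 (Rpl22) and position 26 (Rpl4) from the annotated start. The TOP motif proper begins at the first base of the messenger RNA, whereas the runs of Rpl22 and Rps27l (from position -22) lie before the annotated start and that of Rpl4 after it, so the capitals mark a run and not the motif. Promoter sequences from 250 bases before to 50 after the start were matched for 64 of the 84 genes. A run of at least 8 pyrimidines (C or T, gene strand) within 50 bases of the start was present in 53 of the 64 genes (82.8%), against 37.5% of the 11125 tested genes with a promoter sequence and 39.3% of all 27025. The median longest run was 10 bases in the ribosomal protein genes and 7 in the tested genes. Of letter motifs searched on both strands of the whole window, CCGGAAG, the core bound by ETS factors, stood in 40.6% of the ribosomal protein genes against 19.2% of tested genes and 9.93% of all genes. AAGATGGC, the core bound by Yy1, stood in 9.38% against 5.09% and 3.19%. The GC box GGGCGG stood in 62.5% against 64.5% and 38.2%. CCGGAAG can share its last 3 letters with AAGATGGC, overlaps were not removed, and a match is a description of the window only.

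The 84 genes were scattered over 19 chromosomes, with 14 on chromosome 7 and 4 on the X chromosome (Rpl10, Rpl36a, Rpl39 and Rps4x). Small nucleolar RNA genes, whose products guide chemical modification of ribosomal RNA, lay within 30 of the 84 (35.7%, 58 such genes in all), against 226 of 13189 tested protein-coding genes (1.71%), a count that includes the ribosomal protein genes. Rpl4 held 5 of them and Rpl13a held 4. The genes were short: the median length of all exons joined was 1754.5 bases, against 4348 bases in tested protein-coding genes.

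Total counts were 59135254, 82684219 and 72538282 in the 3 libraries labelled Il3ra-/- and 60601819, 55747682 and 66534218 in the wildtype libraries. Of all genes, 18690 had enough counts to be tested between genotypes with edgeR's quasi-likelihood test. Il3ra itself had no fewer counts in the libraries labelled Il3ra-/-, with 481, 673 and 514 counts there against 465, 376 and 399 in wildtype (edgeR, Benjamini-Hochberg adjusted p = 0.585). The part deleted from the allele is not given, so a shortened transcript would still be counted and the labels are not checked by this gene. Directions are therefore those of the libraries labelled Il3ra-/-. Replicate 1 of each genotype stood apart in its X-linked RNA: Xist, which coats the inactive X chromosome of females, reached 128236 counts in Il3ra-/- replicate 1 and 88078 in wildtype replicate 1, and between 8 and 57 in the other 4 libraries. Ddx3y, a Y-linked gene, had 3 counts and 1 count in those replicates and 6476 to 11226 counts in the others. By these 2 genes, replicate 1 of each genotype had the pattern of female mice and the other 4 libraries that of male mice, though sex was not given. Results are given with and without the 2 Xist-high libraries. The thymocyte label was checked with 14 markers such as Cd3e, Cd4, Cd8a and Rag1, all 14 of which were detected, with summed levels of 12180, 11670 and 11510 CPM (counts scaled by library size) in Il3ra-/- libraries and 12870, 14320 and 13340 CPM in wildtype.

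The ribosomal protein genes took 3.61, 4.06 and 4.14% of all counts in Il3ra-/- replicates 1 to 3, and 3.98, 3.44 and 3.50% in wildtype replicates 1 to 3. The genotypes overlapped, because Il3ra-/- replicate 1 lay below wildtype replicate 1. Counts of the large subunit exceeded those of the small subunit 1.36, 1.35 and 1.34 times in Il3ra-/- libraries and 1.34, 1.36 and 1.36 times in wildtype libraries. The proportion between the subunits thus varied far less than the total, and it too overlapped between the genotypes. In these bulk samples fewer cells of a type and less RNA per cell cannot be told apart. RNA of the mitochondrial genome, which encodes none of these genes, took 10.8, 11.9 and 14.1% of counts in Il3ra-/- libraries and 12.4, 9.55 and 12.0% in wildtype, and was likewise lower in Il3ra-/- replicate 1 than in wildtype replicate 1.

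Across the 6 libraries the genes moved as a block. For each of the 83 tested genes the log2 CPM in a library was set against the gene's own mean over the 6 libraries. The median deviation was -0.086, 0.087 and 0.19 in Il3ra-/- replicates 1 to 3, and 0.10, -0.18 and -0.10 in wildtype replicates 1 to 3. In Il3ra-/- replicates 2 and 3, 79 and 80 of the 83 genes lay above their own mean, against 13 in Il3ra-/- replicate 1. In wildtype, 71 lay above their mean in replicate 1, 3 in replicate 2 and 8 in replicate 3. Il3ra-/- replicate 3 was the highest library for 65 of the 83 genes, and wildtype replicate 2 was the lowest for 53. Both subunits took the same course, with medians in Il3ra-/- libraries of -0.070, 0.086 and 0.19 for the large subunit and -0.11, 0.098 and 0.18 for the small subunit. In wildtype libraries the medians were 0.088, -0.17 and -0.097 for the large subunit and 0.12, -0.20 and -0.12 for the small subunit. The 517 other genes with a mean of at least 260.3 CPM had medians between -0.027 and -0.017 in the Il3ra-/- libraries and between 0.0030 and 0.060 in the wildtype libraries. Single genes of that set spread more widely, with quartiles of -0.19 and 0.14 in Il3ra-/- replicate 3. Between 38.9 and 46.8% of them lay above their own mean in Il3ra-/- libraries and between 51.1 and 71.2% in wildtype. Near-identical copies of the ribosomal protein genes, described below, were not removed from that set.

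**Figure D1:**
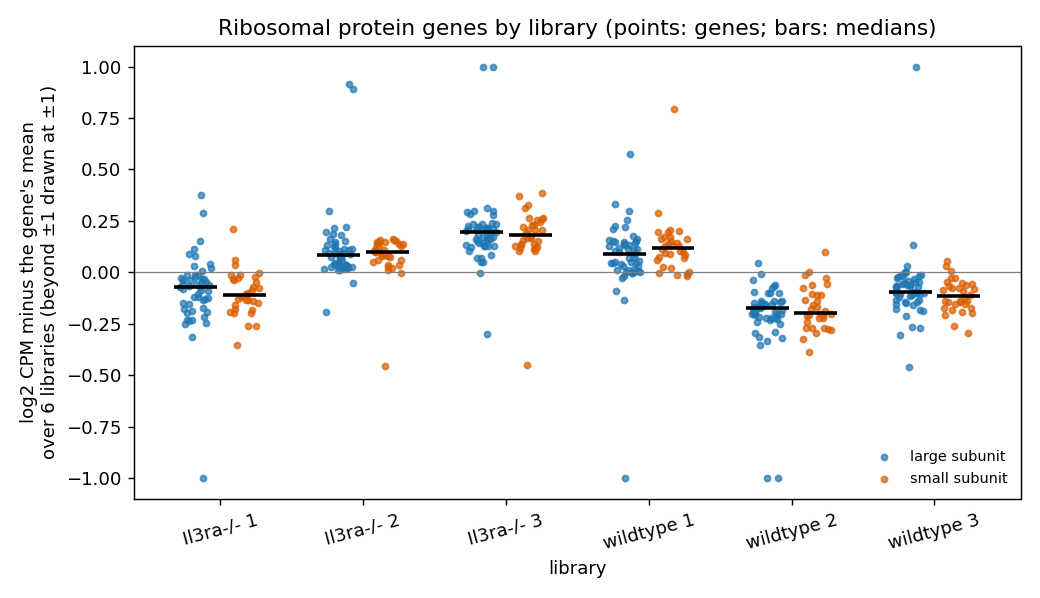
Deviation of each tested ribosomal protein gene from its own mean (log2 CPM, vertical axis; values beyond 1 either way are drawn at the edge) in each library, Il3ra-/- on the left and wildtype on the right; points are genes, coloured by subunit, and bars are subunit medians. The large and small subunit medians moved together, below 0 in Il3ra-/- replicate 1 and wildtype replicates 2 and 3 and above 0 in the other 3 libraries.

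Between the genotypes, no ribosomal protein gene passed the test: 0 of 83 had a Benjamini-Hochberg adjusted p under 0.05 by edgeR's quasi-likelihood test, in a comparison that called 0.091% of all tested genes (0.0161% higher and 0.0749% lower in Il3ra-/-). DESeq2 also called 0 of the 83, in a comparison that called 604 of 18690 genes. At an unadjusted p under 0.05, edgeR gave 3 genes higher in Il3ra-/- and 0 lower, against 8.01% higher and 6.6% lower of all genes. DESeq2 gave 3 and 0, against 7.72% of all genes higher and 1328 of 18690 lower. The smallest adjusted p by edgeR was 0.159, for Rpl3l. The fitted fold was above 1 for 74 of the 83 genes, where 51.2% of all genes were fitted higher. Its median was 1.09 (0.12 on the log2 scale; 0.13 in the large and 0.12 in the small subunit), against 1.01 for all genes. All 3 Il3ra-/- libraries lay above all 3 wildtype libraries for 11 genes, where 10.9% of all genes did so, and below them for 0 genes, where 9.38% did so. The count of 11 among 83 is therefore near the background. The 84th gene, Rpl10l, had 0, 0 and 2 counts in Il3ra-/- libraries and 0 in each wildtype library, and was not tested.

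The count of genes at an unadjusted p under 0.05 depended on replicate 1. It was 11 without Il3ra-/- replicate 1, 15 without wildtype replicate 1, and 1 without any of the other 4 libraries in turn. Of all genes, 10% were higher at that p without Il3ra-/- replicate 1, 6.78% without Il3ra-/- replicate 2, 5.14% without Il3ra-/- replicate 3, 9.14% without wildtype replicate 1, 4.39% without wildtype replicate 2 and 6.66% without wildtype replicate 3. The median log2 fold was 0.19 without Il3ra-/- replicate 1, 0.20 without wildtype replicate 1, 0.065 without Il3ra-/- replicate 3 and 0.070 without wildtype replicate 2. In the Xist-high pair, 71 of 83 genes were lower in the Il3ra-/- library than in the wildtype library, where 50.3% of all genes were, and the median ratio was 0.874. In the other 4 libraries the direction was the opposite. Both Il3ra-/- replicates lay above both wildtype replicates for 77 of 83 genes, where 31.7% of all genes did so, and below them for 1 gene, where 29.0% did so.

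In the fit of replicates 2 and 3 alone, 81 of the 83 genes were fitted higher in Il3ra-/-, with a median fold of 1.20 in both subunits together (0.26 on the log2 scale for the large and 0.27 for the small subunit). An unadjusted p under 0.05 was reached by 45 genes higher in Il3ra-/- and by 0 lower, where 14.2% and 12.9% of all genes reached it. After Benjamini-Hochberg adjustment 5 genes rose in Il3ra-/- and 0 fell by edgeR's quasi-likelihood test, in a fit that called 3.98% of all genes (2.06% higher). The 5 were Rpl22l1, Rpl39, Rps2, Rps14 and Rps27l. Rps2 and Rps14 are named here after their values were seen. This fit rests on 2 libraries per genotype, all with the male pattern of Xist and Ddx3y. Whether replicate 1 differs for its female pattern or for another reason was not tested.

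Rpl39, an X-linked gene for a small protein at the exit tunnel of the large subunit, had 184.9, 225.6 and 236.8 CPM in Il3ra-/- libraries and 203.7, 162.3 and 160.6 CPM in wildtype. Il3ra-/- replicates 2 and 3 stood above every wildtype library, and Il3ra-/- replicate 1 fell inside the wildtype range. Over all 6 libraries its fold was 1.23 (95% interval 1.01 to 1.49, edgeR adjusted p = 0.309), and without replicate 1 of both genotypes it was 1.43 (edgeR adjusted p = 0.0345). Rps2, a small subunit protein at the entry channel for messenger RNA, had 508.9, 599.8 and 678.0 CPM in Il3ra-/- libraries and 593.3, 432.2 and 471.9 CPM in wildtype. Its fold was 1.19 over 6 libraries (edgeR adjusted p = 0.447) and 1.41 without replicate 1 (edgeR adjusted p = 0.0467). Rps14, which lies on the platform of the small subunit, had 432.7, 613.2 and 716.8 CPM in Il3ra-/- libraries and 675.4, 485.1 and 462.2 CPM in wildtype. Its lowest library of all was Il3ra-/- replicate 1, and its fold of 1.09 over 6 libraries (edgeR adjusted p = 0.817) compares with 1.40 without replicate 1 (edgeR adjusted p = 0.0491).

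**Figure D2:**
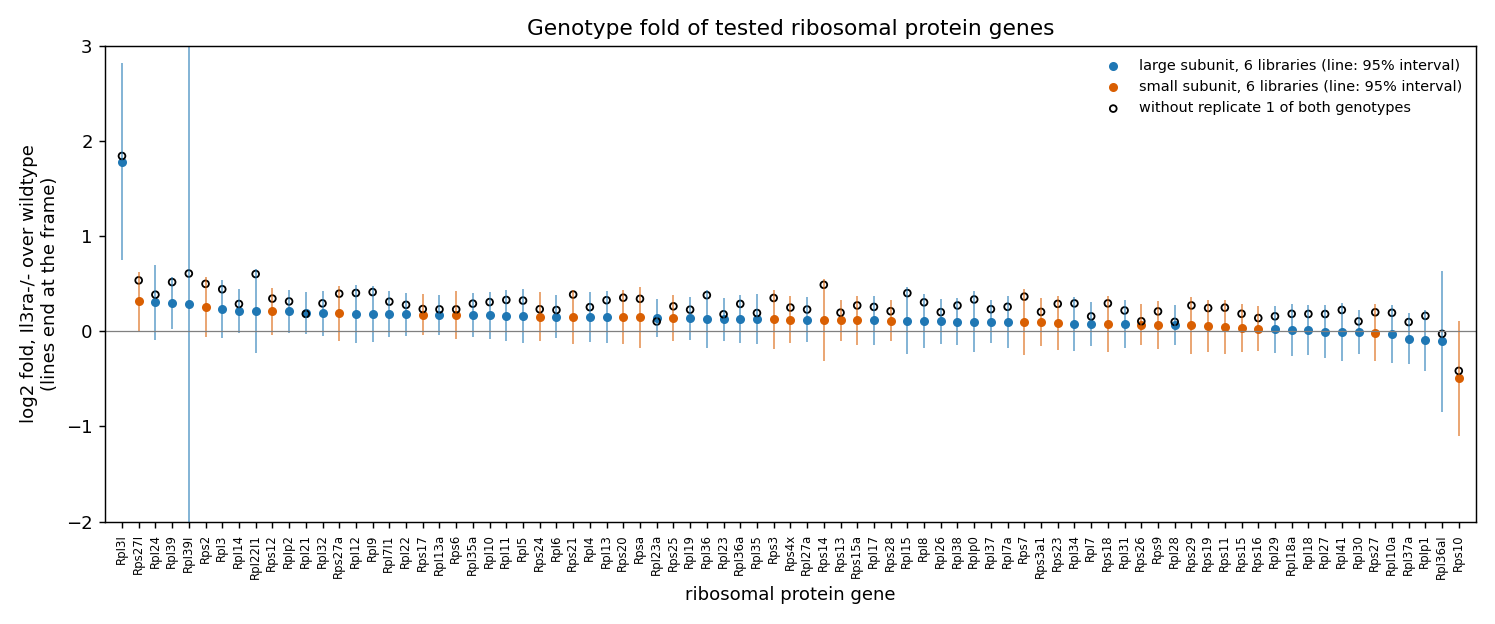
Log2 fold of Il3ra-/- over wildtype for 81 of the tested genes, sorted by the fold over 6 libraries; filled points are that fold, coloured by subunit, with its 95% interval as a line (cut at the frame for Rpl39l), and open circles are the fold without replicate 1 of both genotypes. The open circles lie above 0 for 79 of the genes drawn and the filled points for 72.

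Among genes with special roles the same range was seen. Rplp0, the base of the stalk that recruits translation factors, had 1220, 1445 and 1697 CPM in Il3ra-/- libraries and 1575, 1210 and 1281 CPM in wildtype, a fold of 1.07 (edgeR adjusted p = 0.791). Its partner Rplp1 had 443.7, 579.0 and 591.8 CPM in Il3ra-/- libraries and 678.9, 537.1 and 508.7 CPM in wildtype, a fold of 0.936 (edgeR adjusted p = 0.801). Rplp2, which pairs with Rplp1, had 385.9, 446.0 and 424.4 CPM in Il3ra-/- libraries and 387.3, 337.6 and 362.3 CPM in wildtype, a fold of 1.16 (edgeR adjusted p = 0.390). The fitted folds of the stalk genes fell on both sides of 1, and 0 of the 3 passed the test.

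Rpl5 and Rpl11 bind the smallest ribosomal RNA and, when free, the p53 regulator Mdm2. Rpl5 averaged 1036 ± 110 CPM in Il3ra-/- libraries and 929 ± 123 CPM in wildtype (SD, n = 3 each), a fold of 1.12 (edgeR adjusted p = 0.611). Rpl11 averaged 637 ± 79.0 CPM in Il3ra-/- and 568 ± 48.9 CPM in wildtype (SD, n = 3 each), a fold of 1.12 (edgeR adjusted p = 0.562). Rpsa, the small subunit protein that is also known as a laminin receptor, averaged 1273 ± 196 CPM in Il3ra-/- libraries and 1150 ± 167 CPM in wildtype (SD, n = 3 each; fold 1.11, edgeR adjusted p = 0.681). Rps6, the small subunit target of S6 kinase, had 878.8, 903.3 and 952.7 CPM in Il3ra-/- libraries and 849.5, 706.7 and 874.6 CPM in wildtype. Its Il3ra-/- libraries all lay above the wildtype libraries, by as little as 878.8 against 874.6 CPM, and its fold was 1.13 (edgeR adjusted p = 0.522). Rpl14 also showed no overlap, with 350.5, 357.1 and 366.7 CPM in Il3ra-/- libraries and 333.3, 271.6 and 321.3 CPM in wildtype (fold 1.16, edgeR adjusted p = 0.388).

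The 3 X-linked genes beside Rpl39 had folds of 1.12 for Rpl10, 1.09 for Rpl36a and 1.09 for Rps4x, with adjusted p of 0.522, 0.648 and 0.662 by edgeR. Their values in the Xist-high libraries lay within the range of the others: Rps4x had 671.7 CPM in Il3ra-/- replicate 1 and 732.0 CPM in wildtype replicate 1, between 606.9 and 760.0 CPM in the other libraries. Of the 9 genes fitted lower in Il3ra-/-, the 6 of smallest p are given. Rpl10a had a fold of 0.983, Rpl37a of 0.946, Rps27 of 0.990 and Rplp1 of 0.936, with adjusted p between 0.801 and 0.974 by edgeR, and all 4 had a fold above 1 without replicate 1 of both genotypes (1.15, 1.07, 1.15 and 1.12). Rps10 and Rpl36al, fitted lower in both fits, were also those with the greatest share of their counts in copies, given with the copies.

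Levels of different genes were compared as RPKM, that is CPM divided by the length of all exons in kilobases. The median over the 84 genes was 224 RPKM, and the quartiles were 128 and 366 RPKM. By counts on the genes themselves Rplp1 was highest, at 1078 ± 164 RPKM in Il3ra-/- libraries and 1152 ± 183 RPKM in wildtype (SD, n = 3 each). Rps3a1, a small subunit protein near the exit of the messenger RNA, followed at 1114 ± 57.5 and 1042 ± 114 RPKM in Il3ra-/- and wildtype libraries (SD, n = 3 each), and these neighbours did not differ beyond their spread. Rplp0 at a mean of 847 RPKM and Rps15 at 822 RPKM came next, again within each other's spread, ahead of Rpl4 at 611, Rpl19 at 546 and Rps6 at 543 RPKM. At the other end stood the lesser genes of the paralogue pairs, and, among genes without such a role, Rps10 at 2.30 RPKM, Rpl24 at 4.14 RPKM and Rpl13a at 23.4 RPKM. Rps15a at 60.6 RPKM and Rps19 at 64.7 RPKM were the next lowest small subunit genes outside the pairs. Large subunit genes other than lesser paralogues had a median of 222 RPKM and small subunit genes one of 266 RPKM, and with copies summed the medians were 426 and 365 RPKM, in the opposite order. The order also depends on the length used: with the length of the longest transcript the median was 369 RPKM, and 7 of the 10 highest genes were among the 10 highest again. With copies summed 7 of the 10 were again among the highest, but Rps3a1 at 2387, Rpl23a at 2139 and Rps6 at 1409 RPKM stood above Rplp1 at 1163 RPKM. If reads were counted at each place they fit, which is not known, levels with copies would grow with the number of copies.

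**Figure D3:**
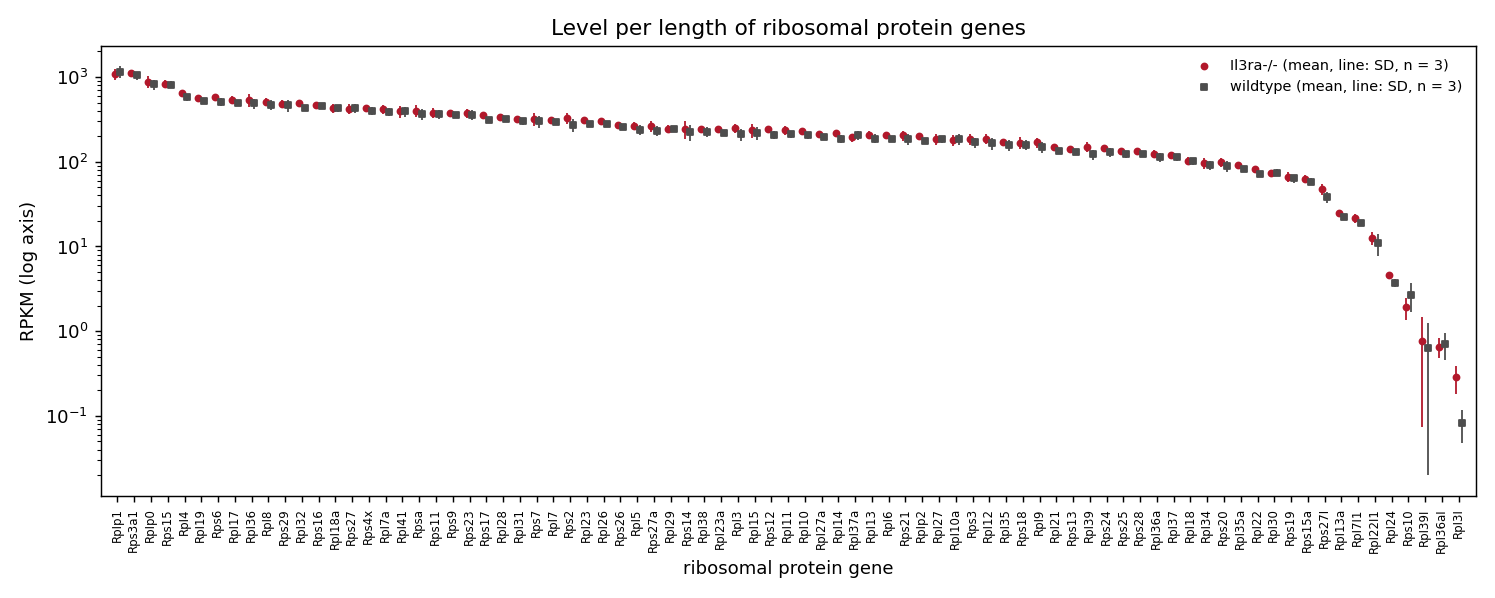
Level per length (RPKM, log axis) of 81 ribosomal protein genes in order of their mean; circles are Il3ra-/- and squares wildtype, each a mean with its SD as a line (n = 3). The levels run from 1115 RPKM for Rplp1 to 0.184 RPKM for Rpl3l, and the lesser paralogues, Rpl13a, Rpl24 and Rps10 stand below Rps15a at 60.6 RPKM.

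The 4 genes Rps10, Rpl24, Rpl36al and Rpl13a share a feature of the annotation. At least 83.4% of the coding bases of each lie inside exons of another annotated gene on the same strand, the read-through model RPS10-NUDT3 for Rps10 (92.1%), Gm28037 for Rpl24 (83.4%), Gm49383 for Rpl36al (95.3%) and a pair of models for Rpl13a (97.5%). Among the other 80 genes 1 had any such overlap, Rpl19 with 13.6%. The overlapping models are in the count table and had 0 counts in all 6 libraries. Rps10 itself had 355, 309 and 257 counts in Il3ra-/- libraries and 523, 313 and 289 in wildtype. Rpl24 had 284, 357 and 361 counts in Il3ra-/- libraries and 252, 220 and 223 in wildtype. Rpl36al had 70, 65 and 50 counts in Il3ra-/- libraries and 79, 40 and 54 in wildtype. How reads inside more than 1 gene were treated was not given in the sources used here, and their part in these low counts was not tested.

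Most counts on the sequences of 3 of these genes stood on processed pseudogenes. A search of all annotated transcripts with each coding sequence found 571 near-identical copies (at least 95% identity over at least 80% of the coding sequence) for 78 of the 84 genes, and 556 of them are annotated as pseudogenes. Of the copies, 491 had at least 60 counts over the 6 libraries. Rps10-ps2, a pseudogene on chromosome 16 that differs from the coding sequence of Rps10 at 5 of 495 bases, had 17215, 28874 and 24172 counts in Il3ra-/- libraries and 20431, 16532 and 20684 in wildtype. Copies held 98.7% of the counts of Rps10 and its copies together, 98.9% for Rpl36al and 96.0% for Rpl24. The sequences show how little separates a gene from its copy. Each pair covers 60 coding bases, 5′ to 3′ in reading direction, from the GENCODE M21 transcripts of GRCm38, with the bases that differ within the pair in capitals.
Rps10: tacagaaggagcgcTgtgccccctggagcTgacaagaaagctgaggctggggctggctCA
Rps10-ps2: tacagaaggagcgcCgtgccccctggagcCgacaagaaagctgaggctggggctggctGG
Rpl24: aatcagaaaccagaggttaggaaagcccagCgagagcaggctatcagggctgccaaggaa
Gm9385: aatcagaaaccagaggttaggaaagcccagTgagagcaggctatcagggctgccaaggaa
Rpl36al: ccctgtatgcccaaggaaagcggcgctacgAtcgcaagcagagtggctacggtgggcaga
Rpl36a-ps3: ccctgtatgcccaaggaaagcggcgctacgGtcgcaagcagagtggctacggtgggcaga
The genes lie at chr17:27630418-27636669 (minus strand), chr16:55966275-55971435 (plus strand) and chr12:69182731-69184083 (minus strand), and their copies Rps10-ps2, Gm9385 and Rpl36a-ps3 at chr16:20822145-20822640 (minus strand), chr9:116040593-116041064 (minus strand) and chr6:136488807-136489127 (plus strand). The stretches are coding bases 379 to 438 of Rps10, which hold 4 of its 5 differences, 283 to 342 of Rpl24 and 95 to 154 of Rpl36al, which hold the single difference of each pair. Gm9385 had 2855, 4602 and 4739 counts in Il3ra-/- libraries and 4013, 3054 and 2764 in wildtype, and Rpl36a-ps3 had 5089, 6581 and 6189 in Il3ra-/- libraries and 4786, 4308 and 5891 in wildtype. Both copies were above their gene in every library.

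Copies held a large part of the counts of the whole family. The treatment of reads that fit several places was not given, so a read may have been counted at more than 1 of them. The shares below are therefore of counts and not of distinct reads. They held 40.3, 40.3 and 40.4% of the counts of genes and copies together in Il3ra-/- libraries and 40.2, 40.1 and 40.4% in wildtype, so the split hardly varied between libraries. Genes and copies together took 6.05, 6.80 and 6.95% of all counts in Il3ra-/- libraries and 6.66, 5.75 and 5.87% in wildtype, the same order of libraries as for the genes alone. For 21 genes the copies held more than 50% of the joint counts. Rpl23a (89.2%), Rpl30 (78.3%) and Rpl15 (75.4%) followed the 3 genes above and are named after their values were seen. Among the 6 genes with no such copy were Rpl3l, Rpl39l and Rps27l. Summed with its copies, Rps10 reached 166 RPKM, Rpl24 103 RPKM and Rpl36al 61.8 RPKM, within the range of other genes, and the lowest gene outside the lesser paralogues was then Rpl13a at 42.3 RPKM. Their folds summed with copies were 1.05 for Rps10, 1.06 for Rpl24 and 1.03 for Rpl36al, with adjusted p of 0.828, 0.860 and 0.891 by edgeR, where the genes alone had folds of 0.710, 1.23 and 0.929. The count of genes fitted higher in Il3ra-/- was 77 of 83 after summing, and 0 passed the adjusted threshold. How far reads of a gene and of its copies were told apart is not known here. The values of the 78 genes are therefore uncertain, to differing degrees. Copies held as little as 0.052% of the joint counts for Rpl22 and 1.45% for Rpl4.

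**Figure D4:**
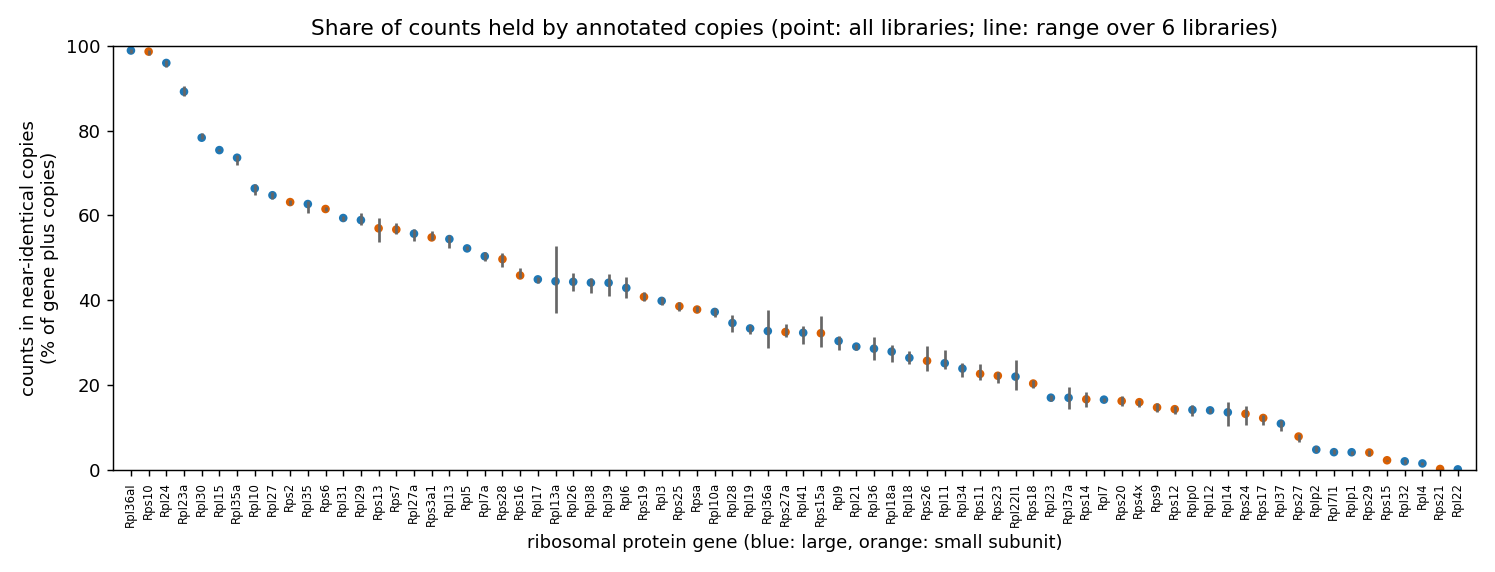
Share of the counts of a gene and its near-identical copies that was assigned to the copies (percent, vertical axis) for 76 ribosomal protein genes with copies and at least 60 counts, in falling order; points are all libraries together and lines the range over the 6 libraries. The share runs from 98.9% for Rpl36al to 0.052% for Rpl22, and the share of Rpl13a ranged from 37.0% in Il3ra-/- replicate 1 to 52.7% in wildtype replicate 1.

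In the 7 pairs of protein-coding paralogues, the gene called lesser here is the lower of the pair by counts on the genes themselves. With copies summed Rpl36al had 61.8 RPKM against 177 RPKM for Rpl36a, or 25.9% of that pair. Rpl22l1, the paralogue of Rpl22, had 10.2, 14.2 and 13.6 RPKM in Il3ra-/- replicates 1 to 3, against 14.5, 9.88 and 8.38 RPKM in wildtype replicates 1 to 3. It made 11.8, 14.8 and 13.4% of the pair in Il3ra-/- libraries and 15.8, 13.0 and 10.2% in wildtype, and the genotypes overlapped. Its fold was 1.16 over 6 libraries (95% interval 0.854 to 1.57, edgeR adjusted p = 0.662) and 1.52 without replicate 1 (edgeR adjusted p = 0.0368). Rpl22 itself had 221.5, 237.3 and 256.1 CPM in Il3ra-/- libraries and 225.0, 192.4 and 214.4 CPM in wildtype, a fold of 1.13 (edgeR adjusted p = 0.451). In mice Rpl22 protein is known to repress Rpl22l1, and the coding sequences were 74.6% identical over 77.6% of Rpl22.

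Rps27l, a paralogue of Rps27 known as a p53 target, had 32.7, 38.6 and 45.0 CPM in Il3ra-/- libraries and 36.0, 26.3 and 31.3 CPM in wildtype. Its fold was 1.24 (95% interval 1.001 to 1.54, edgeR adjusted p = 0.341), and without replicate 1 of both genotypes 1.45 (edgeR adjusted p = 0.0469). Rps27l made 10.2, 9.46 and 10.6% of its pair in Il3ra-/- libraries and 8.32, 7.08 and 9.27% in wildtype. All 3 Il3ra-/- shares lay above the wildtype shares, the closest being 9.46 and 9.27%, while Rps27 had a fold of 0.990. The shares were not tested, and by level 10.9% of all genes showed such an order of libraries. Rps27l had no copies, and Rps27 had 462 RPKM with its copies against 426 RPKM alone.

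Rpl3l, the muscle paralogue of Rpl3, was at a very low level. It had 18, 39 and 45 counts in Il3ra-/- libraries and 6, 6 and 13 in wildtype, or 0.297, 0.465 and 0.647 CPM against 0.101, 0.104 and 0.199 CPM. All 3 Il3ra-/- libraries lay above the wildtype libraries, and the fold was 3.44 (95% interval 1.68 to 7.05). This did not pass over the 18690 tested genes (edgeR adjusted p = 0.159), and it passed when every gene with a count was kept (edgeR adjusted p = 0.0244). That wider fit called 840 of 33265 genes, 531 of them higher in Il3ra-/-, where the main fit called 17 of 18690. Rpl3l made 0.0819, 0.117 and 0.140% of its pair in Il3ra-/- libraries and 0.0249, 0.0351 and 0.0590% in wildtype. Rpl3, with 700.7, 767.4 and 894.6 CPM in Il3ra-/- libraries and 780.1, 571.2 and 651.6 CPM in wildtype, had a fold of 1.18 (edgeR adjusted p = 0.454).

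Rpl39l, known from male germ cells, was the most variable of all 83 genes in both genotypes. It had 3, 56 and 84 counts in Il3ra-/- libraries and 22, 6 and 72 in wildtype, so that single libraries of each genotype were near 0 and others were not (fold 1.22, 95% interval 0.187 to 7.94, edgeR adjusted p = 0.936). Rpl7l1, a paralogue known from the assembly of the large subunit, was the steadiest, at 6.35, 6.28 and 6.95% of its pair in Il3ra-/- libraries and 6.32, 6.04 and 5.95% in wildtype (fold 1.13, edgeR adjusted p = 0.480). Rpl36al made 0.743, 0.465 and 0.386% of its pair in Il3ra-/- libraries and 0.750, 0.500 and 0.549% in wildtype, a share that leaves out its copies. Rps4l, annotated as a transcribed pseudogene, made 0.348, 0.199 and 0.410% of the Rps4x pair in Il3ra-/- libraries and 0.407, 0.378 and 0.172% in wildtype. Unlike these, the pseudogenes of Rps3a1 had high counts. Rps3a2, whose transcript is 99.5% identical to the Rps3a1 coding sequence, took 37.2, 37.4 and 37.9% of the pair's RPKM in Il3ra-/- libraries and 38.3, 37.5 and 39.2% in wildtype. Rps3a3 took between 8.57 and 10.6% in Il3ra-/- libraries and between 8.39 and 10.6% in wildtype.

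**Figure D5:**
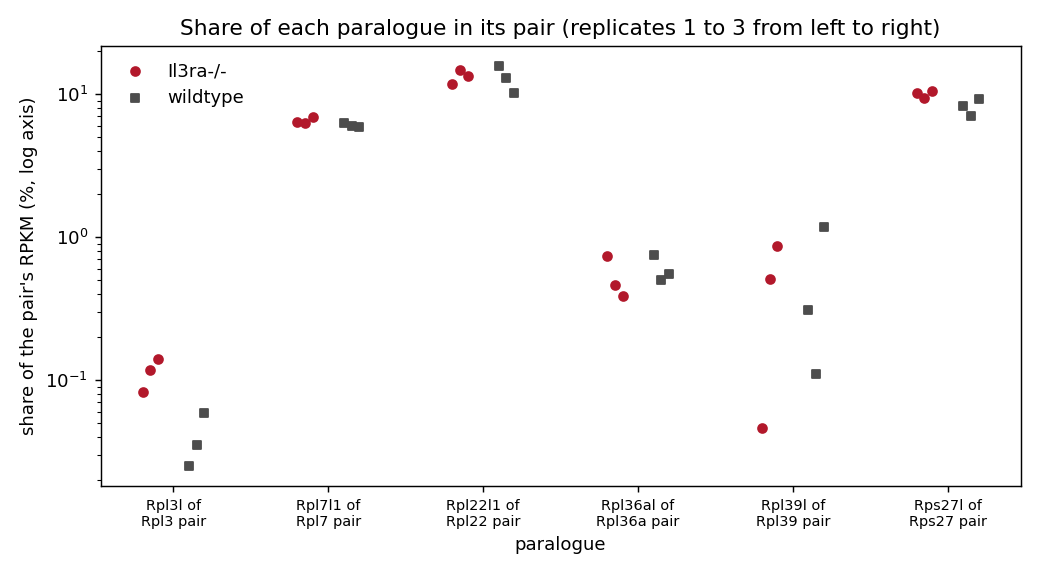
Share of the lesser gene in the summed RPKM of its pair (percent, log axis) for 6 paralogue pairs; circles are Il3ra-/- libraries and squares wildtype libraries, replicates 1 to 3 from left to right. Il3ra-/- points lie above all wildtype points for Rpl3l, which had few counts, and narrowly for Rps27l. The genotypes overlap for Rpl22l1, Rpl36al, Rpl39l and Rpl7l1. By single-gene levels, 10.9% of all genes had all 3 Il3ra-/- libraries above all 3 wildtype libraries, and the shares of pairs were not tested.

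Genes around the ribosome were read from 4 lists. Of 3 ribosomal protein genes outside the symbol rule 0 passed, and the fusion gene Fau and the scaffold Rack1 had folds of 0.981 and 1.07 in Il3ra-/- over wildtype. Rack1 took the course of the family, with 693.6, 899.6 and 1086 CPM in Il3ra-/- libraries and 1003, 739.3 and 766.7 CPM in wildtype. Of 26 translation factors and other messages with a TOP motif, 23 were fitted higher, where 51.2% of all genes were. Among the 26, 5 were higher at an unadjusted p under 0.05, where 8.01% of all genes were, and 0 passed. Their median log2 fold was 0.14. By library their median deviation was 0.020, 0.033 and 0.13 in Il3ra-/- libraries and 0.00030, -0.17 and -0.038 in wildtype, so that Il3ra-/- replicate 1 was not below wildtype replicate 1. The import receptor Ipo5 had the smallest p of them, with 153.5, 135.6 and 158.1 CPM in Il3ra-/- libraries and 121.3, 107.9 and 128.4 CPM in wildtype (fold 1.25, edgeR adjusted p = 0.203), while the folds of Lgals1 and Nap1l1 were larger, at 1.304 and 1.272. Of 17 tested chaperones and release factors of ribosomal proteins and subunits, 12 were fitted higher, against the same 51.2% of all genes. Among the 17, 5 were higher at an unadjusted p under 0.05, against 8.01%, and 0 passed. Their median log2 fold was 0.18. All 3 Il3ra-/- libraries lay above all 3 wildtype libraries for 6 of the 17 and for 7 of the 26 TOP genes. Of all genes 10.9% did so. Rrs1, known from yeast to help load Rpl5 and Rpl11 into the young large subunit, had 25.3, 28.0 and 30.2 CPM in Il3ra-/- libraries and 21.9, 18.0 and 20.0 CPM in wildtype. Its libraries did not overlap between the genotypes (fold 1.39, edgeR adjusted p = 0.151), and it rose without replicate 1 of both genotypes (log2 fold 0.61, edgeR adjusted p = 0.0345). Of the 15 genes of mTORC1 and Larp1 control, 4 were fitted higher and 0 passed, with a median log2 fold of -0.11. Without replicate 1, 1 TOP gene (Cirbp) and 1 chaperone (Rrs1) rose in Il3ra-/- and 0 genes of the other 2 lists did, where 2.06% of all genes rose. In that fit 6 of the 15 mTORC1 and Larp1 genes were lower at an unadjusted p under 0.05, where 12.9% of all genes were, and 0 passed the adjusted threshold.

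Macrophage, B cell and dendritic cell markers followed the same order of libraries within the Il3ra-/- group. So did the erythroid markers and those of stroma and endothelium, given below. In wildtype, of these lists only the macrophage and B cell sums followed the order of the ribosomal protein genes. The 7 macrophage markers, all tested, summed to 38.0, 66.2 and 77.7 CPM in Il3ra-/- libraries and 67.3, 45.1 and 46.8 CPM in wildtype. The 7 B cell markers summed to 35.6, 58.6 and 75.3 CPM in Il3ra-/- libraries and 57.4, 51.6 and 55.8 CPM in wildtype, and the 6 dendritic cell markers to 12.4, 28.7 and 47.7 CPM in Il3ra-/- libraries and 18.6, 20.4 and 19.2 CPM in wildtype. Each macrophage, B cell and dendritic cell marker had counts, 0 passed the genotype test, and their sums were lowest in Il3ra-/- replicate 1. The 12 markers of dividing cells, such as Mki67 and Mcm2, summed to 4824, 3578 and 4537 CPM in Il3ra-/- libraries and 3050, 2731 and 3426 CPM in wildtype, without overlap. All 12 were fitted higher, where 51.2% of all genes were, with a median log2 fold of 0.48. Of the 12, 0 passed the test over all genes. The sum of dividing-cell markers was highest in Il3ra-/- replicate 1, where the ribosomal protein genes were low. Their median log2 deviation was instead highest in Il3ra-/- replicate 3, where the ribosomal protein genes were high. It was 0.30, 0.027 and 0.41 in Il3ra-/- libraries and -0.15, -0.40 and -0.16 in wildtype. Of the 14 thymocyte markers 2 were fitted higher, with a median log2 fold of -0.19. Erythroid markers, 5 of 6 tested, summed to 3.37, 22.9 and 34.2 CPM in Il3ra-/- libraries and 9.09, 57.6 and 40.8 CPM in wildtype. Thymic epithelial markers, 5 of 7 tested, summed to 8.954, 11.88 and 11.04 CPM in Il3ra-/- libraries and 10.2, 6.541 and 9.055 CPM in wildtype. Markers of stroma and endothelium, 4 of 6 tested, summed to between 123.7 and 131.4 CPM in Il3ra-/- libraries and between 123.7 and 126.9 CPM in wildtype. The part of these cells in the levels of the ribosomal protein genes was not tested.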

How the data were processed

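Thymocyte RNA of 6 mice was prepared with a stranded messenger RNA kit, per the labels' protocols, and handled with STAR 2.5.4b and featureCounts on GRCm38, per the submitters' processing notes. The annotation release, the strand setting and the treatment of reads in several genes or places were not given in the sources used here. Raw counts per gene, in 1 column per library, were deposited by the authors. All 55536 identifiers matched GENCODE M21, which gave symbols, lengths and overlaps.

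Counts were filtered with filterByExpr (18690 genes left), scaled by TMM and fitted in edgeR 4.0.16 under R 4.3.3 (robust glmQLFit, then glmQLFTest) without covariates. P-values were Benjamini-Hochberg adjusted over all tested genes, with a threshold of 0.05. CPM values use the library size after TMM, and folds are Il3ra-/- over wildtype. Log2 deviations used a pseudocount of 0.01 CPM. Copies were found with blastn 2.17.0. A count of 0 allows up to 3 counts, 0.0357 to 0.0519 CPM, which covers counting error only. The common biological coefficient of variation was 18.7%. No library was a duplicate of another, since chi-square over genes between replicates was 40.7 to 96.4 times its degrees of freedom. The method was tested on simulated data, and how often it finds folds as small as most of those here was not tested.

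Members and lists were chosen with earlier results of these data known. Genes named are those of paralogue pairs, the 6 of smallest p each way, the 4 highest and 4 lowest per subunit by RPKM, the X-linked genes, Rpl5, Rpl11, Rpsa and the stalk, the most variable gene per genotype, and up to 3 per related list; a few of these are not reported here. Alternatives were DESeq2 1.42.0, limma-voom (limma 3.58.1), 4 scalings, 2 filters, blocking on replicate number, leaving out each library or of replicate 1 of both genotypes, and another length. Summing genes with copies, and the overlap of coding bases with other genes, were added after the data were seen. Rpl10l was too low to test. Related protein sequences were not used here.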

Additional observations from a re-analysis of the deposited data

How the results depend on the processing

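By edgeR, the count of ribosomal protein genes past the adjusted threshold was 0 in each direction with all 6 libraries. It was also 0 with DESeq2, limma-voom, each scaling, the 1 CPM filter, the replicate block, copies summed, and each library omitted in turn. The 1 CPM filter asked for that level in 3 libraries, which left Rpl3l, Rpl39l and Rpl36al untested, so they could not be called there. The count was 1 higher with every gene with a count kept (Rpl3l), in a fit that called 531 of 33265 genes higher. It was 5 higher without replicate 1 of both genotypes, where 394 of 19127 genes were called higher. The cause of these changes was not tested. At an unadjusted p under 0.05, the 3 higher became 1 with the replicate block, 45 without replicate 1 of both genotypes, and 1 to 15 when 1 library was omitted. The 0 lower became 1 with every gene with a count, 1 with the replicate block, and 0 to 1 when 1 library was omitted. Same-numbered libraries did not deviate together (r across genes of -0.11, 0.029 and -0.12), so the numbers were not taken to pair them, though the block also groups the Xist-high libraries. With the block edgeR called 9 genes of 18690 in all where 17 were called without it. DESeq2 called 604 genes, none of them a ribosomal protein gene.

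The median log2 fold of the genes stayed above 0 throughout, between 0.065 and 0.26. The large minus small subunit difference of median log2 fold was 0.012, and 0.0021 to 0.044 when 1 library was omitted. The Il3ra-/- minus wildtype difference of the large to small ratio was -0.0057, and -0.018 with copies included. The median level of 224 RPKM became 369 with the longest transcript and 358 with copies.

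Some single folds turned sign. Without replicate 1 of both genotypes the log2 folds were 0.19 for Rpl10a, 0.097 for Rpl37a, 0.16 for Rplp1 and 0.20 for Rps27. With copies they were 0.038 for Rpl36al, 0.066 for Rps10 (-0.49 without them) and 0.0015 for Rps27. When 1 library was omitted they ran from -0.15 to 0.11 for Rpl10a, -0.34 to 0.21 for Rpl36al, -0.16 to 0.012 for Rpl37a, -0.51 to 1.44 for Rpl39l, -0.025 to 0.22 for Rplp0, -0.18 to 0.042 for Rplp1, -0.045 to 0.11 for Rps15, -0.033 to 0.16 for Rps19, -0.10 to 0.10 for Rps27 and -0.058 to 0.19 for Rps29. The depth limits only Rpl3l, Rpl39l, Rpl36al and Rpl10l, which had under 100 counts in each library. In the fits of all 6 libraries without covariates, p-values measure the spread between 3 mice per genotype. That spread includes any difference between the 1 mouse with the female pattern and the 2 with the male pattern. Without replicate 1 of both genotypes, p-values rest on 2 mice per genotype.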
